A study of Homo sapiens with 27 samples.

Results

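The mRNA levels of 10 genes of the TGF-β and BMP pathways were followed in U937 cells treated with matrine: ID1, ID2, ID3, SMAD6, SMAD7, SKIL, SKI, BAMBI, TGIF1 and TGFB1. They were taken by symbol from a table of 57905 genes, and all 10 symbols were found. U937 is a human myeloid leukemia cell line of monocytic character, and matrine is an alkaloid of the herb Sophora flavescens. The 9 RNA-seq libraries analysed here were 3 of control cells, 3 of cells taken 30 min after matrine was added at 0.8 mg/ml and 3 of cells taken 24 h after the same dose. The study's vehicle was ddH2O, all groups were the same cell line, and the time the control cells spent in culture is not given in the sources used here, so 24 h of matrine and 24 h of culture cannot be told apart. The genes were selected from the pathway with the changes of these same libraries at 30 min and 24 h already known, so their values are given as a description, without p-values.

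TGF-β and BMP ligands are secreted proteins that bind pairs of kinase receptors at the cell surface. The receptors phosphorylate receptor-regulated SMAD proteins, which join SMAD4, enter the nucleus and switch genes on or off. SMAD6 and SMAD7 are the inhibitory SMADs, BAMBI is a decoy receptor without kinase activity, SKI and SKIL (SnoN) are nuclear corepressors that bind SMADs, and TGIF1 is a homeobox corepressor. Several of them are themselves transcribed in response to the pathway, which makes them feedback inhibitors. ID1, ID2 and ID3 are classic BMP target genes whose products bind basic helix-loop-helix (bHLH) factors and keep them off DNA, and they are known for holding back differentiation in blood cells. Most of these genes also respond to other growth factor and stress signals.

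The libraries held between 17314931 and 21930018 counted reads each, with the 10 most abundant genes at 4.99% to 5.28% of the reads. Of 10 monocytic markers, 9 had a mean level above 1 FPKM (fragments per kilobase of gene, scaled to library size), among them SPI1, CD33 and LYZ, while CD68 was at 0.557 FPKM. Among markers of other cell types, the erythroid gene HBG1, the T cell gene CD3E and the epithelial gene EPCAM were listed at 0 in every library. Nothing in the labels says that the libraries of a group came from separate cultures, so the spread between them may be technical.

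In control cells TGFB1 had the highest level of the 10 genes, at 94.3 ± 5.61 FPKM (SD, n = 3 libraries), and ID2 followed at 46.8 ± 1.91. SKI was at 17.5 ± 0.673, BAMBI at 15.4 ± 0.847 and ID1 at 11.1 ± 1.29 FPKM. SMAD6 was at 5.80 ± 0.340, TGIF1 at 2.48 ± 0.188, SMAD7 at 2.14 ± 0.286 and SKIL at 1.23 ± 0.124 FPKM, with the values of TGIF1 and SMAD7 overlapping. ID3 was last at 0.160 ± 0.161 FPKM, with 1 to 12 reads per library over the 9 libraries. No other pair of neighbours in this order overlapped in the control. Among all genes with a mean above 1 FPKM, TGFB1 lay at the 95.7th percentile and ID2 at the 90.4th, while SMAD7, SKIL and TGIF1 lay between the 21.0th and the 23.9th. At 24 h the levels of SKIL, ID1, SMAD7 and TGIF1 lay close together, and each overlapped the next in that order.

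**Figure D1:**
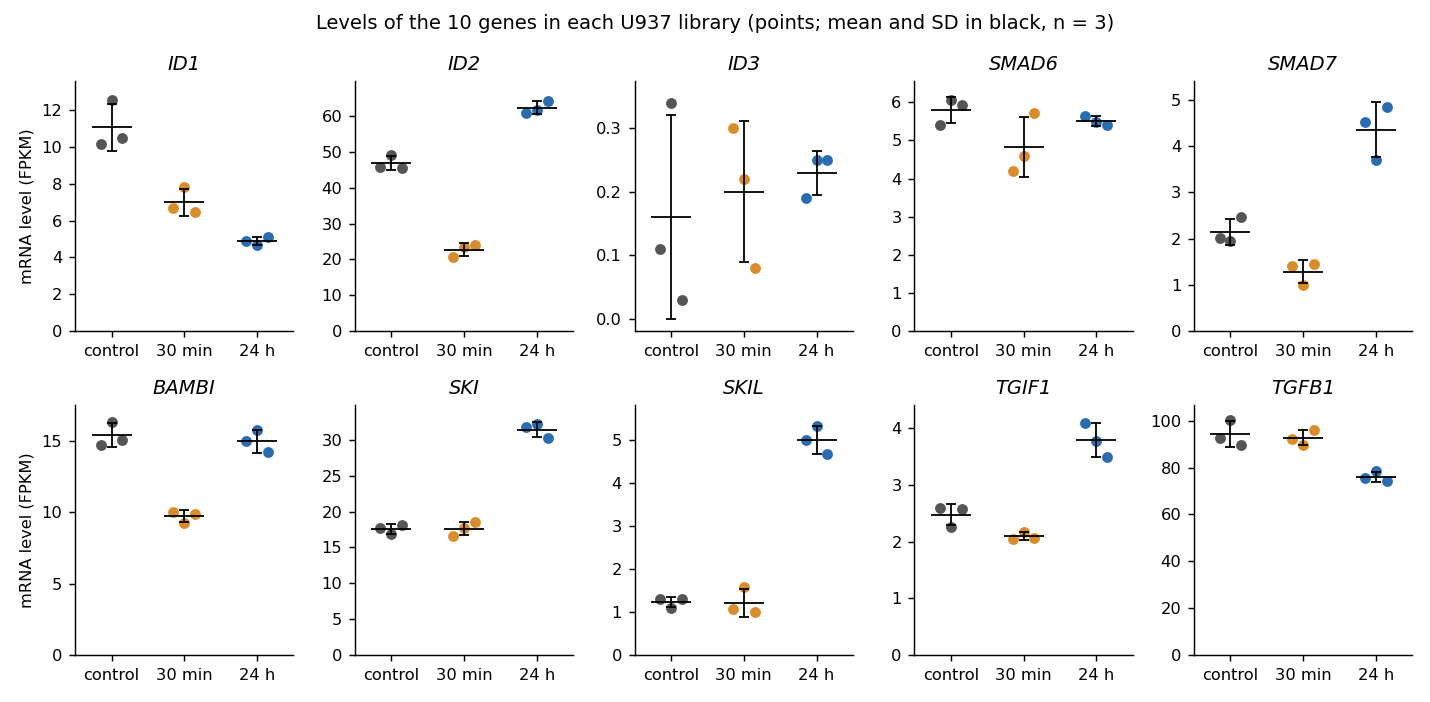
Level of each of the 10 genes in FPKM (vertical axes, a separate scale for each gene) in the 3 libraries of control, 30 min and 24 h matrine. Points are libraries and the black marks are the mean and SD. All libraries of ID1, ID2, SMAD7, BAMBI and TGIF1 lie below the control at 30 min. At 24 h all of ID2, SKI, SKIL, SMAD7 and TGIF1 lie above it, and all of ID1 and TGFB1 below it. Of all genes tested, 8.91% lie below the control in this way at 30 min. At 24 h 38.7% lie above it and 31.0% below it.

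Genes with a mean above 1 FPKM over the 6 libraries of a comparison were tested with edgeR on the counts. A gene is named as called where its adjusted p was below 0.05 and its fold change at least 1.5, which is 0.58 on the log2 scale. Of the 10 genes, 9 could be tested in each comparison and ID3 in none, since its level was too low. All 9 had a mean above 1 FPKM in each of the 3 groups, so none passed the filter through a single high group.

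After 30 min of matrine treatment, 4 of the 9 genes were called lower and 0 higher. The lower ones were ID1, ID2, SMAD7 and BAMBI. In bulk libraries such as these, fewer cells with a transcript and less of it per cell cannot be told apart. Among all 11587 genes tested at 30 min, 0.544% were called lower and 0.0949% higher. Since the genes were chosen with these results in view, nothing is read from that difference. With no fold change required, the numbers were again 4 and 0, beside 1.32% and 0.293% of all genes. In 5 genes every 30 min library lay below every control library in FPKM (the 4 called genes and TGIF1), an order that 8.91% of all tested genes showed. The median log2 fold change over the 9 genes was -0.25, beside -0.0030 over all genes tested.

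After 24 h, 1 of the 9 genes was called lower and 3 were called higher. ID1 was the lower gene, and SMAD7, SKI and SKIL were the higher ones. Among all 12035 genes tested, 11.5% were called lower and 14.8% higher. With no fold change required, TGFB1 joined the lower genes and ID2 and TGIF1 the higher ones, which made 2 and 5, beside 32.5% and 30.9% of all genes. Every 24 h library lay below every control library in 2 of the 10 genes (ID1 and TGFB1) and above it in 5 (ID2, SMAD7, SKIL, SKI and TGIF1), orders shown by 31.0% and 38.7% of all genes tested. The median log2 fold change over the 9 genes was 0.35, beside -0.0022 over all genes tested. The 2 times are compared with the same 3 control libraries, so their values are set side by side and not counted as separate evidence.

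**Figure D2:**
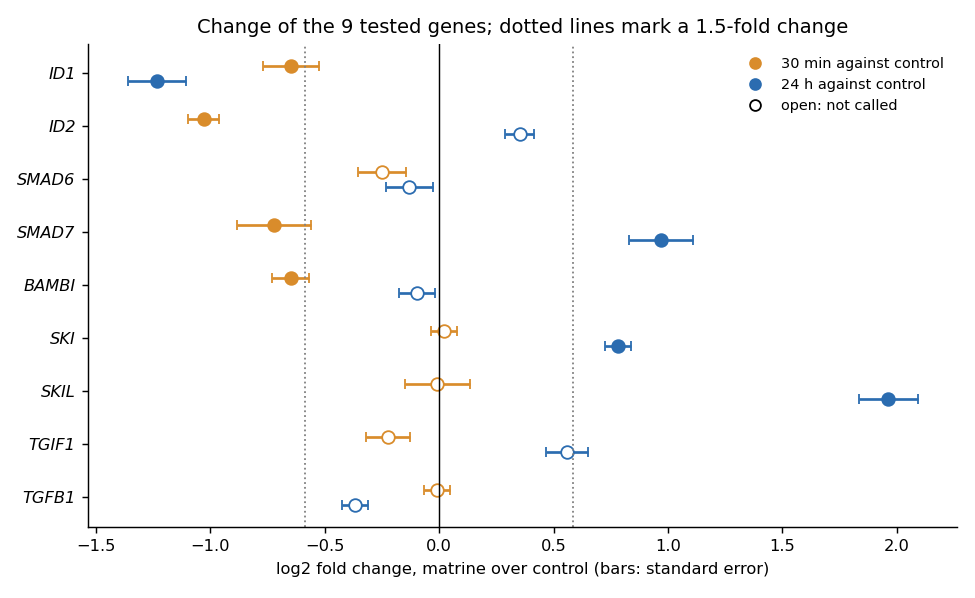
Log2 fold change of the 9 tested genes (horizontal axis) at 30 min in orange and 24 h in blue, each against the same control libraries, with standard errors. Filled points were called and open points were not. The values of SMAD7 were -0.72 at 30 min and 0.97 at 24 h, while those of ID1 were -0.65 and -1.23.

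Between 30 min and 24 h of matrine, 5 of the 9 genes were called higher (ID2, SMAD7, SKIL, SKI and TGIF1) and 0 lower. Of all 11981 genes tested in this comparison, 15.7% were called higher and 11.3% lower. With no fold change required, 6 were higher, BAMBI being the addition, and 2 were lower (ID1 and TGFB1), beside 33.3% and 32.1% of all genes. Every 24 h library lay above every 30 min library in 6 of the 10 genes, an order shown by 39.9% of all genes tested, and below in 2 (28.6% of all genes tested). The median over the 9 genes was 0.76, beside 0.02 over all genes tested.

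The promoters of the 4 genes called lower at 30 min, and that of SKIL, which had the largest change at 24 h among the 9 genes, are shown so that their sequences can be compared. Each window covers 250 bases before and 50 after a start site in RefSeq (GRCh38.p14), read 5′ to 3′ on the strand of the gene. Windows were matched for 9 of the 10 genes. Those shown are chr20:31605039-31605338 on the plus strand (ID1), chr2:8681806-8682105 on the plus strand (ID2), chr18:48950916-48951215 on the minus strand (SMAD7, the most upstream of its 3 windows), chr10:28677271-28677570 on the plus strand (BAMBI) and chr3:170357465-170357764 on the plus strand (SKIL). Capitals mark 6 motifs searched on both strands: the SMAD binding element CAGAC, the BMP-type SMAD motif GGCGCC, the cAMP response core TGACG, the full palindrome TGACGTCA, the E-box CACGTG and the TATA box TATAAA.
ID1: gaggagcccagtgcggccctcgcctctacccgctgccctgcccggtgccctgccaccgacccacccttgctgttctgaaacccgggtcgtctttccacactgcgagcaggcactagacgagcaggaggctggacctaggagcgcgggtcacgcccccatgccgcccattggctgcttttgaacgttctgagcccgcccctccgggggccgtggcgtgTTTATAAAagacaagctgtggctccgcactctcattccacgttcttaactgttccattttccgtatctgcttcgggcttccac
ID2: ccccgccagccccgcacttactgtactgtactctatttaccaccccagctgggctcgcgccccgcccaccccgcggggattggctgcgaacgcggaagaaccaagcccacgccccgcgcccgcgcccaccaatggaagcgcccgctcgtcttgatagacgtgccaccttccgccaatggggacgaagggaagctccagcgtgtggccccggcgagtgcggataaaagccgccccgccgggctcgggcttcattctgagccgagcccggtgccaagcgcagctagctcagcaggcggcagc
SMAD7: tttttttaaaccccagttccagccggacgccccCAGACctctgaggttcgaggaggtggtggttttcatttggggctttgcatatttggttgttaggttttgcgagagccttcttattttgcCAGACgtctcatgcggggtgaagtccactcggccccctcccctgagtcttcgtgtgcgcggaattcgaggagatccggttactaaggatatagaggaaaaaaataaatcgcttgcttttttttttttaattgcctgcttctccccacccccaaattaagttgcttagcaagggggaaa
BAMBI: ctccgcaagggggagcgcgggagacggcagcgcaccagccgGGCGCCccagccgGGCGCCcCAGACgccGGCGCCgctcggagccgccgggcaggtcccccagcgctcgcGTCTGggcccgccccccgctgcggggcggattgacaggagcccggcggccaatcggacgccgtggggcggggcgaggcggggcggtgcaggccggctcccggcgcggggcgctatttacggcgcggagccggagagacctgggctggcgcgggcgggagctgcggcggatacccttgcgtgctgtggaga
SKIL: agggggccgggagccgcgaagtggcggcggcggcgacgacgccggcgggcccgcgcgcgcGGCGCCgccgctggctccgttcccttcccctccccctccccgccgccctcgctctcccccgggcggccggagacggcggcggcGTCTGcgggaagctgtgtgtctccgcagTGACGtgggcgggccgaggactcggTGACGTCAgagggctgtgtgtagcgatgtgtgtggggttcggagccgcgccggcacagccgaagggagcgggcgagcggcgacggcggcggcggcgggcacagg

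None of the 6 motifs was in all 4 windows of the genes called lower at 30 min. That of ID1 held the TATA box, which overlaps itself on both strands and starts 31 bases before the start site on the plus strand. TATAAA is found in 11.5% of 35116 promoter windows. That of ID2 held none of the 6. That of SMAD7 held CAGAC at 2 places (another window of this gene, not shown, holds 1 CAGAC and TATAAA), and that of BAMBI held CAGAC at 2 and GGCGCC at 3 places, while 45.3% of all windows hold the former and 19.2% the latter. The window of SKIL held 1 CAGAC, 1 GGCGCC and the full palindrome TGACGTCA, which overlaps 2 of its 3 TGACG matches and occurs in 1.85% of all windows, against 24.6% for the shorter TGACG. None of the 5 held CACGTG, which 7.26% of all windows hold. The GC content was 80.0% in BAMBI, 79.0% in SKIL, 69.0% in ID2, 62.7% in ID1 and 48.3% in SMAD7. A match is a string of letters and not evidence of binding, and no match says only that the letters are not in this window.

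ID1 (ENSG00000125968) lies on chromosome 20 from 31605283 to 31606515 (GRCh38, GENCODE 44), and its protein inhibits bHLH factors. Its level was 10.1, 12.5 and 10.5 FPKM in the control libraries, 6.69, 7.82 and 6.44 at 30 min of treatment and 4.89, 4.66 and 5.12 after 24 h. The 3 groups did not overlap, with the control the highest and 24 h the lowest. Against the control, the log2 fold change at 30 min was -0.65 (standard error 0.12), or 0.638 times the control. At 24 h it was -1.23 (standard error 0.13), or 0.426 times the control. From 30 min to 24 h it was -0.58 (standard error 0.13), at the edge of the fold change required, and it was called lower under 11 of the 20 alternatives. The read counts behind these values ran from 117 to 299 per library. Without replicate 2 of the control, which had the highest ID1 level, the value at 30 min was -0.52 and was not called.

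ID2 (ENSG00000115738), on chromosome 2 from 8678845 to 8684461, encodes a second inhibitor of bHLH factors, long studied in lymphoid and myeloid development. It was at 45.8, 49.0 and 45.6 FPKM in the control, 20.7, 23.6 and 23.9 at 30 min of treatment, and 60.7, 61.7 and 64.2 after 24 h. The 30 min libraries were the lowest and the 24 h libraries the highest, and no groups overlapped. At 30 min the log2 fold change of ID2 was -1.03 (standard error 0.067), or 0.490 times the control, and it was called under each alternative tried, including a fold change of at least 2. At 24 h it was 0.35 (standard error 0.064), which is 1.28 times the control and under the fold change required. From 30 min to 24 h it was 1.38 (standard error 0.067), or 2.60 times. ID2-AS1, whose exons overlap those of ID2 on the other strand, had a mean of 0.144 FPKM.

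ID3 (ENSG00000117318), on chromosome 1 from 23557926 to 23559501, had 4, 12 and 1 reads in the control libraries, 12, 8 and 3 at 30 min of treatment and 7, 9 and 10 after 24 h. These groups overlapped, and at this depth no difference could be seen. The summed level of the 3 ID genes was therefore that of ID1 and ID2. It was 58.0 ± 3.34 FPKM (SD, n = 3) in the control, 29.9 ± 2.00 after 30 min and 67.3 ± 2.00 after 24 h. On the FPKM scale the groups did not overlap. The share of ID1 in this sum was 18.1% to 20.2% in the control libraries, 21.1% to 24.8% after 30 min and 7.0% to 7.44% after 24 h. ID1 and ID2 thus had different orders of the 3 groups: 24 h was the lowest group for ID1 and the highest for ID2.

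**Figure D3:**
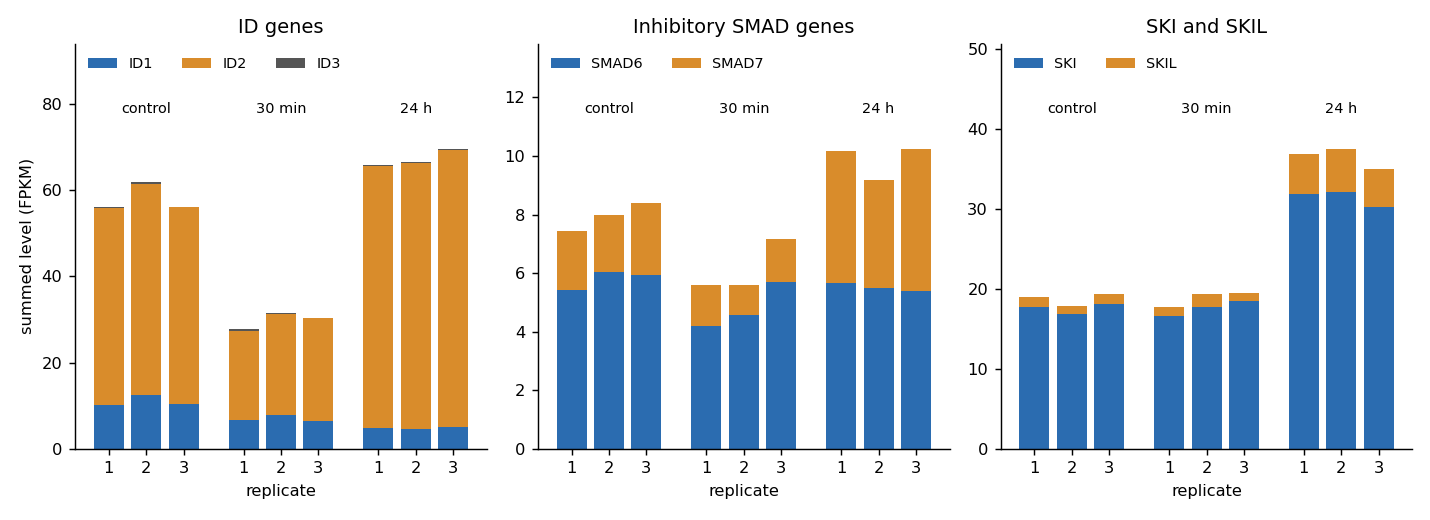
Summed levels in FPKM (vertical axes from 0) of the ID genes, the inhibitory SMAD genes and SKI with SKIL in each library, numbered by replicate and stacked by gene. The ID sum is 27.7 to 31.6 FPKM in the 30 min libraries, against 56.1 to 61.9 in the control. The sum of SKI and SKIL is 34.9 to 37.5 FPKM in the 24 h libraries, against 17.9 to 19.4 in the control.

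SMAD7 (ENSG00000101665), on chromosome 18 from 48919853 to 48950965, encodes an inhibitory SMAD that binds activated receptors and brings ubiquitin ligases to them. Its level was 2.02, 1.94 and 2.47 FPKM in the control, 1.40, 1.00 and 1.45 at 30 min of treatment, and 4.52, 3.70 and 4.85 after 24 h. All 30 min libraries were below and all 24 h libraries above the control. Against the control, SMAD7 had a log2 fold change of -0.72 at 30 min (standard error 0.16), or 0.606 times, and of 0.97 at 24 h (standard error 0.14), or 1.96 times. From 30 min to 24 h it was 1.69 (standard error 0.15), or 3.23 times. Its counts were low, from 76 to 158 per library in the control and 30 min groups. The value at 30 min was not called without replicate 3 of the control (-0.62), without replicate 2 of 30 min (-0.55), with limma on log2(FPKM + 0.1) (-0.71) or log2(FPKM + 1) (-0.46), or at a fold change of at least 2. The values at 24 h were called in each library left out.

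SMAD6 (ENSG00000137834), on chromosome 15 from 66702236 to 66782849, encodes the inhibitory SMAD that acts mainly on BMP signals. It was at 5.41, 6.05 and 5.93 FPKM in the control, 4.20, 4.58 and 5.71 at 30 min of treatment and 5.65, 5.48 and 5.39 after 24 h, and these groups overlapped. SMAD6 was not called at either time, with a log2 fold change of -0.25 at 30 min (approximate 95% interval from -0.45 to -0.05) and of -0.13 at 24 h (from -0.33 to 0.07). SMAD7 was 24.3% to 29.4% of the summed level of SMAD6 and SMAD7 in the control, 17.9% to 25.0% after 30 min and 40.3% to 47.4% after 24 h. The sum itself was 7.94 ± 0.487, 6.11 ± 0.906 and 9.86 ± 0.593 FPKM (SD, n = 3) in the 3 groups.

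BAMBI (ENSG00000095739), on chromosome 10 from 28677510 to 28682932, encodes the decoy receptor that blocks TGF-β and BMP receptors from pairing. Its level was 14.8, 16.4 and 15.1 FPKM in the control, 10.0, 9.28 and 9.89 at 30 min of treatment and 15, 15.8 and 14.2 after 24 h. The 30 min libraries lay below all others, and the control and 24 h libraries overlapped. BAMBI thus had a log2 fold change of -0.65 at 30 min (standard error 0.081), or 0.638 times the control, and of -0.10 at 24 h, with an approximate 95% interval from -0.25 to 0.06. From 30 min to 24 h it was 0.55 (standard error 0.081), or 1.47 times, under the fold change required. This last value was called higher under 5 of the 20 alternatives, among them the one with no fold change threshold. Without replicate 2 of the control, the value at 30 min was -0.57 and was not called, so that without this library 2 of the genes, ID2 and SMAD7, were called lower at 30 min.

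SKIL (ENSG00000136603), on chromosome 3 from 170357342 to 170396835, encodes the corepressor SnoN, which holds SMAD complexes inactive on DNA and is itself a TGF-β target. It was at 1.31, 1.09 and 1.30 FPKM in the control, 1.06, 1.59 and 1.00 at 30 min of treatment and 5.00, 5.33 and 4.69 after 24 h. The control and 30 min libraries overlapped, and the 24 h libraries were above both. At 24 h the log2 fold change of SKIL was 1.96 (standard error 0.13), or 3.90 times the control, the largest among the 9 genes. At 30 min it was -0.01, with an approximate 95% interval from -0.29 to 0.27. The reads behind these levels rose from between 158 and 254 in the earlier groups to between 797 and 844 at 24 h.

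SKI (ENSG00000157933), on chromosome 1 from 2227388 to 2310213, encodes the related corepressor for which the family is named. Its level was 17.7, 16.8 and 18.1 FPKM in the control, 16.7, 17.7 and 18.5 at 30 min of treatment and 31.8, 32.2 and 30.3 after 24 h, with the first 2 groups overlapping and the last above both. For SKI the log2 fold change at 24 h was 0.78 (standard error 0.057), or 1.72 times the control, and 0.02 at 30 min, with an approximate 95% interval from -0.09 to 0.13. Together SKI and SKIL had a summed level of 18.8 ± 0.791 FPKM in the control, 18.8 ± 0.981 after 30 min and 36.4 ± 1.33 after 24 h (SD, n = 3). SKIL was 6.09% to 6.88% of this sum in the control, 5.13% to 8.24% after 30 min and 13.4% to 14.2% after 24 h.

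TGIF1 (ENSG00000177426), on chromosome 18 from 3411608 to 3459978, encodes a corepressor that competes with coactivators for SMAD2 and SMAD3. It was at 2.60, 2.26 and 2.57 FPKM in the control, 2.05, 2.17 and 2.07 at 30 min of treatment and 4.10, 3.78 and 3.50 after 24 h, and no groups overlapped. For TGIF1 the log2 fold change at 24 h was 0.56 (standard error 0.092), or 1.47 times the control, and -0.23 at 30 min (standard error 0.097), neither called. From 30 min to 24 h it was 0.78 (standard error 0.093), or 1.72 times, which was called. The value at 24 h against the control lay just under the required fold change and passed it without replicate 1 of the control (0.59), without replicate 3 of 24 h (0.61), when scaled by library totals alone (0.62), and with limma on log2(FPKM + 0.1) (0.60).

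TGFB1 (ENSG00000105329), on chromosome 19 from 41301587 to 41353922, encodes the ligand TGF-β1 and was the most abundant of the 10 transcripts in every group. Its level was 92.7, 100.5 and 89.6 FPKM in the control, 92.2, 89.8 and 96.1 at 30 min of treatment and 75.6, 78.5 and 74.2 after 24 h. The control and 30 min libraries overlapped and those of 24 h were below both. TGFB1 had a log2 fold change of -0.01 at 30 min, with an approximate 95% interval from -0.12 to 0.10, and of -0.37 at 24 h (standard error 0.057), or 0.775 times the control, under the fold change required. Exons of TGFB1 overlap those of HNRNPUL1 on the other strand, which had a mean of 107.0 FPKM. Since the strand setting of the counting is not given in the sources used here, the level of TGFB1 carries that limit.

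For each of ID1, BAMBI and SMAD7, the 3 genes with the most similar pattern were found among 12238 others, by the root mean square difference in log2 CPM (read counts scaled to library size) over the 9 libraries, each gene centred on its own control mean. The genes found resemble the member by selection, so their changes are a description only. For ID1 they were TXNDC5, RGS16 and RGCC, with differences of 0.14, 0.15 and 0.19. Their log2 fold changes were -0.51, -0.68 and -0.68 at 30 min and -1.11, -1.13 and -1.31 at 24 h. For BAMBI they were CXCR4, CITED2 and B3GNT2, with differences of 0.07, 0.10 and 0.10. CXCR4, a chemokine receptor, was at 126.2 FPKM in the control, 78.3 after 30 min and 117.2 after 24 h. For SMAD7 they were IL12A-AS1, PLAU and LINC01637, with differences of 0.18, 0.21 and 0.22. PLAU, the urokinase plasminogen activator, had log2 fold changes of -0.52 at 30 min and 0.91 at 24 h.

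The rest of the pathway was followed through 129 other genes in 8 lists ordered by role, of which 127 were matched. At 30 min 61 of them were tested, with 2 called lower and 0 higher, or 3.28% and 0%, against 0.544% and 0.0949% of all genes tested. At 24 h 64 were tested, with 4 called lower and 10 higher, or 6.25% and 15.6%, against 11.5% and 14.8% of all genes. The median change of these genes on the log2 scale was -0.01 for 30 min and 0.07 for 24 h, beside -0.0030 and -0.0022 over all genes. From 30 min to 24 h, 2 of 64 were called lower and 10 higher, or 3.12% and 15.6%, against 11.3% and 15.7% of all genes. The 10 higher genes of both comparisons include NOG and CDKN2B, which passed the filter on low values only through their 24 h level. At 24 h against 30 min the same held for ZFYVE16, at 0.963 FPKM after 30 min. These calls are no support for a change of the lists. The p-values below are from edgeR's quasi-likelihood test, adjusted over all genes tested. These lists too were drawn up with earlier results of the same libraries known, so the p-values describe single genes and are no independent evidence about a list.

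Ligands other than TGFB1 were mostly below the filter on low values. Of 30 matched genes 9 were listed at 0 in every library and 3 could be tested, and 0 of these 3 were called at either time. Of the receptors, 4 of 9 tested were called higher at 24 h and 0 of 8 tested were called at 30 min. Beside these counts, 14.8% of all genes tested were called higher and 11.5% lower at 24 h. At 30 min it was 0.0949% and 0.544%. TGFBR2, the type II receptor that binds TGF-β, went from 10.5 ± 0.367 FPKM in the control to 20.8 ± 0.711 (SD, n = 3), a log2 fold change of 0.92 (standard error 0.064, edgeR adjusted p = 9.93e-11). TGFBR1, its type I partner, went from 45.3 ± 3.18 to 71.9 ± 1.07 FPKM, with 0.61 (edgeR adjusted p = 4.21e-08). The BMP type II receptor BMPR2 rose from 1.52 ± 0.187 to 2.43 ± 0.112 FPKM, with 0.62 (edgeR adjusted p = 7.81e-06), and the type I receptor ACVR1 from 1.29 ± 0.300 to 2.27 ± 0.212 FPKM, with 0.77 (edgeR adjusted p = 0.00031). BMPR1A was at 1.08 FPKM in the control and 1.06 at 24 h, with a log2 fold change of -0.10 (standard error 0.11). Without replicate 2 of the control, TGFBR1 (0.57) and BMPR2 (0.54) fell under the fold change required.

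The SMADs that carry the signal did not reach the fold change required. Of 6 genes, SMAD2, SMAD3, SMAD4 and SMAD5 were tested, and 0 were called in any comparison. Among all genes tested, 14.8% were called higher and 11.5% lower at 24 h. SMAD2 and SMAD3 are the SMADs of the TGF-β branch, SMAD5 belongs to the BMP branch and SMAD4 is shared. At 24 h the log2 fold change was 0.35 for SMAD2, 0.19 for SMAD3, 0.25 for SMAD4 and 0.10 for SMAD5, with edgeR adjusted p of 0.000143, 0.0119, 0.00857 and 0.413. At 30 min it was between -0.11 and 0.0014, with edgeR adjusted p from 0.602 to 0.998. SMAD3 was the most abundant at 8.0 ± 0.425 FPKM in the control.

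**Figure D4:**
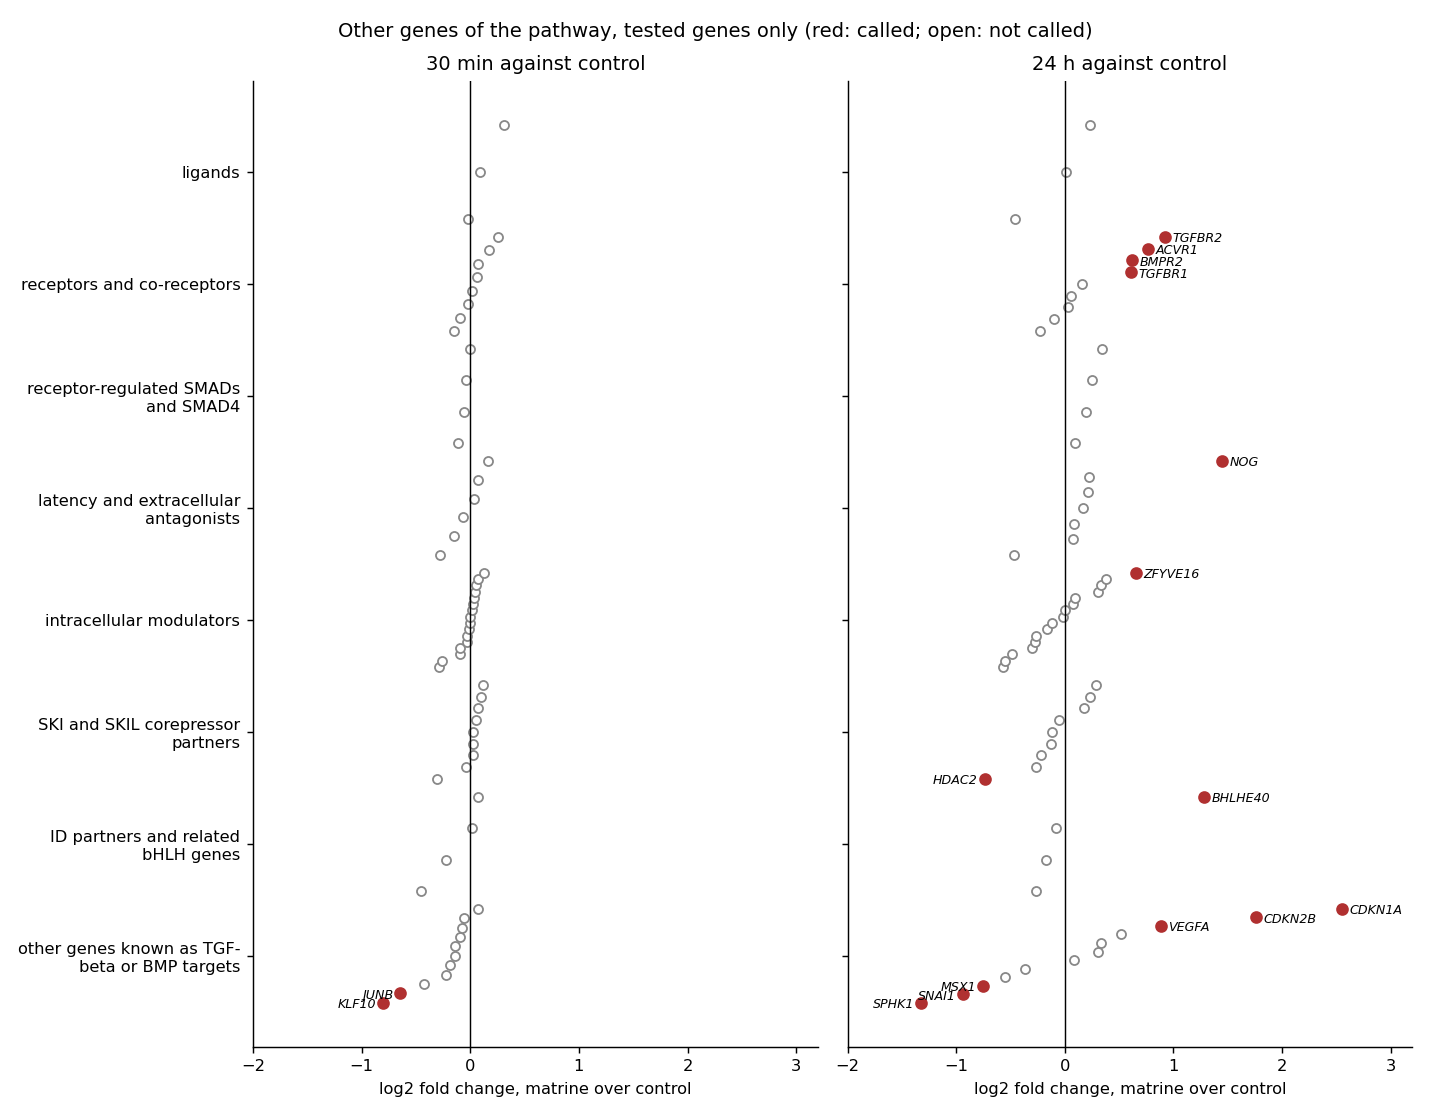
Log2 fold change (horizontal axes) of the tested genes of the 8 lists, one row per list, at 30 min and 24 h against the control. Red points with a name were called and open points were not. At 30 min KLF10 and JUNB are the called genes, both lower. At 24 h 10 of 64 are called higher, 4 of them receptors, and 4 lower. Of all genes tested, 14.8% were called higher and 11.5% lower at 24 h.

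At 24 h 14.8% of all genes tested were called higher and 11.5% lower, the shares beside which the next counts stand. Among extracellular antagonists and latency proteins, NOG, which encodes the BMP antagonist noggin, was the 1 gene of 7 tested that was called at 24 h. It rose from 0.997 ± 0.150 to 2.85 ± 0.101 FPKM, with a log2 fold change of 1.45 (standard error 0.19), given without a p-value because it passed the filter on low values only through its 24 h level. Of 16 intracellular modulators, 1 was called at 24 h, which was ZFYVE16, with 0.66 (edgeR adjusted p = 8.87e-05). It encodes the endosomal protein endofin, its exons overlap those of FAM151B-DT, and without replicate 2 of the control it had 0.51 and was not called. Of 9 partners of SKI and SKIL, the histone deacetylase gene HDAC2 was called lower at 24 h, from 16.7 ± 0.140 to 10.4 ± 0.398 FPKM, a log2 fold change of -0.74 (edgeR adjusted p = 2.95e-09). GPS2, of the NCOR complex, was called higher at 24 h against 30 min with 0.59 (edgeR adjusted p = 9.62e-05), a value that lay at the edge of the required fold change and was not called with DESeq2 or with 6 of the 9 libraries left out in turn. Its exons overlap those of the far more abundant EIF5A. Of 4 tested partners and relatives of the ID genes, BHLHE40, a bHLH repressor, was called higher at 24 h with 1.28 (edgeR adjusted p = 8.41e-13), from 21.4 ± 1.17 to 54.2 ± 1.47 FPKM. At 30 min it was at 15.5 ± 1.37 FPKM with -0.45 (edgeR adjusted p = 0.000303), under the fold change required.

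Of the other known TGF-β or BMP targets, 2 of 11 tested were called at 30 min, both lower, beside 0.544% of all genes tested. KLF10, a TGF-β-inducible early gene, fell from 7.84 ± 0.101 to 4.47 ± 0.675 FPKM, a log2 fold change of -0.80 (edgeR adjusted p = 1.05e-05), and was at 11.7 ± 0.400 FPKM after 24 h. JUNB, of the AP-1 family, fell from 57.3 ± 4.20 to 36.3 ± 2.21 FPKM with -0.64 (edgeR adjusted p = 4.26e-06), but was not called when replicate 2 of the control (-0.56) or of 30 min (-0.57) was left out. At 24 h 3 of 12 were called higher and 3 lower, beside 14.8% and 11.5% of all genes tested. Those higher were the cyclin-dependent kinase inhibitor genes CDKN1A (p21) with 2.55 (edgeR adjusted p = 3.21e-12) and CDKN2B (p15) with 1.76, and the growth factor gene VEGFA with 0.89 (edgeR adjusted p = 3e-11). CDKN2B, at 0.637 FPKM in the control, passed the filter only through its 24 h level and is given without a p-value. Those lower were the sphingosine kinase gene SPHK1 with -1.32 (edgeR adjusted p = 4.76e-10), the transcription factor gene SNAI1 with -0.94 (edgeR adjusted p = 3.78e-06) and the homeobox gene MSX1 with -0.75 (edgeR adjusted p = 0.00686). The exons of SPHK1 overlap those of PRPSAP1 and the exons of JUNB those of HOOK2. Like the 10 genes, these targets answer to many signals, and whether TGF-β or BMP signalling changed was not measured.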

How the data were processed

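Messenger RNA was measured by RNA-seq in 9 U937 libraries, 3 per group; libraries of K562 and HL-60 cells are not analysed here. Reads were trimmed with cutadapt 1.9.1 (per the submitters' processing notes), mapped with HISAT2 2.0.1 and counted per gene with HTSeq 0.6.1. The authors deposited for each library the unnormalized read count and the FPKM value of each gene, rounded to 2 decimals. The paper names hg38 and the submitters' notes name GRCh37; the annotation release and strand setting are not given in the sources used here. Symbols came from GENCODE 44 for 51996 of the 57905 identifiers, and the coordinates printed are those of its GRCh38 annotation.

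Counts were normalized by TMM and tested in a single edgeR (4.0.16, R 4.3.3) quasi-likelihood fit that held all 9 libraries. P-values were adjusted (Benjamini-Hochberg) over genes whose FPKM, averaged over both groups compared, exceeded 1. A call required an adjusted p under 0.05 together with a change of 1.5-fold or more. Each standard error was obtained by dividing the log2 fold change by the square root of F, and approximate 95% intervals are 1.96 standard errors to each side. FPKM was used for levels, sums, orders of libraries and the filter, without the TMM factors. These were 1.02 to 1.04 in the 24 h libraries and 0.980 to 0.996 in the control, so the 2 scales differ slightly. ID2 at 24 h was 1.33 times the control in FPKM and 1.28 times in the fit. An exact permutation test of 3 against 3 libraries gives no p below 0.1, so none was run. In simulated data for 24 h against control, 200 of 12239 genes were changed by 1 on the log2 scale. At an adjusted p under 0.05, with no fold change rule, the fit recovered 182 with 15 false calls. In the real data 11.5% of genes were called lower and 14.8% higher at 24 h, so the simulation does not give the error rate of those calls. Replicate libraries differed by more than counting noise in each of the 9 pairs (chi-square per degree of freedom from 2.14 to 11.9), so none was treated as a library deposited again. This does not show that they came from separate cultures. The chi-square value was 7.20 and 7.39 for control replicate 2 against replicates 1 and 3, and 2.38 between the latter. At 30 min it was 8.51 and 11.9 for replicate 3 against replicates 1 and 2, and 5.28 between those. Same-numbered libraries of different groups did not deviate together more than others. The correlation was above 0.1 in 3 of 9 such pairs and in 9 of 18 pairs of different number. Its highest value among the latter was 0.422, and the cause was not tested.

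The members, lists and promoter motifs were chosen with earlier results of these data known. Named genes were all members, every gene of the 8 pathway lists called in a comparison, the SMADs that carry the signal, 5 receptors, and for ID1, BAMBI and SMAD7 the 3 genes of most similar pattern. The alternatives were other filters, normalizations, tools (DESeq2 1.42.0, limma 3.58.1), pseudocounts and fold changes, a fit of the 6 libraries compared, a replicate block, and leaving out each of the 9 libraries. Some markers of other cell types are not reported here.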

Additional observations from a re-analysis of the deposited data

Results flagged for a closer look

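In 5 of the 10 genes the effect at 24 h differed from that at 30 min by at least 1.5-fold, by the comparison of the 2 matrine groups with each other in edgeR. All 5 were higher, as were 15.7% of all genes tested, while 11.3% were lower. With no fold change required, BAMBI was also higher, and ID1 and TGFB1 were lower. The log2 fold change of 24 h over 30 min was 1.38 for ID2, 1.69 for SMAD7, 1.97 for SKIL, 0.76 for SKI and 0.78 for TGIF1, and each was higher at 24 h in 3 of 3 libraries. In ID2, SMAD7 and TGIF1 the 30 min libraries lay below the control and the 24 h libraries above it. Against the control, however, TGIF1 was called at neither time, and the higher level of ID2 at 24 h was under the fold change required. The genes were chosen with the results known, and the test is a description of them.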

How the results depend on the processing

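The values of ID2 at 30 min, ID1 at 24 h, SKIL at 24 h and SMAD7 at 24 h against 30 min kept their direction and their call under each alternative run for them. Of the 10 genes, those called lower at 30 min numbered 2 to 4 with a library left out, 2 without replicate 2 of the control, and 1 at a fold change of at least 2. Those called higher at 24 h numbered 1 with a mean FPKM above 5 and 1 at a fold change of at least 2. With a mean FPKM above 5 the 1 was SKI, as SMAD7, SKIL and TGIF1 were too low to be tested. Without a fold change threshold 5 were called higher and 2 lower. At 24 h against 30 min, those called lower numbered 1 with no FPKM filter, with DESeq2, with its size factors and with only the 6 libraries of the comparison, 2 without a fold change threshold, and 0 to 1 with a library left out; the 1 was ID1. Those called higher numbered 3 with a mean FPKM above 5 and 3 at a fold change of at least 2. The former were ID2, SKI and BAMBI (0.63), since SMAD7, SKIL and TGIF1 were again not tested. The latter were ID2, SMAD7 and SKIL.

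Over all genes, a stricter or looser threshold moved the numbers by construction. With no FPKM filter 95 were lower and 31 higher at 30 min. Testing only genes above 5 FPKM left 7 higher genes at 30 min, 781 lower against 886 higher genes at 24 h, and 747 against 944 between the treated groups. Without a fold change threshold it was 153 lower and 34 higher at 30 min, 3912 and 3717 at 24 h, and 3843 and 3988 at 24 h against 30 min, and at a fold change of at least 2 it was 23 and 1, 372 and 758, and 339 and 795. With limma on log2(FPKM + 1), 6 were higher at 30 min, 895 lower at 24 h and 820 lower at 24 h against 30 min; the pseudocount shrinks the change of low genes. Leaving out a library gave 10 to 18 genes higher at 30 min, the 18 without replicate 2 of 30 min. The share of lower genes among those called at 24 h against 30 min was 41.8%, and 32.6% both with library totals alone and with limma on log2(FPKM + 0.1).

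Values near 0 at 30 min changed sign. SKIL was at 0.001 with no FPKM filter, 0.0052 with DESeq2's size factors and 0.0055 with DESeq2, and TGFB1 at 0.0027 with either of the last 2. SMAD5 was at -0.0128 with library totals alone and -0.0078 and -0.007 with limma and pseudocounts of 0.1 and 1. With a library left out the value ran from -0.0116 to 0.072 for SKI, -0.2207 to 0.1175 for SKIL, -0.051 to 0.0682 for TGFB1, -0.0683 to 0.0644 for SMAD5, -0.0879 to 0.0359 for SMAD4, -0.2228 to 0.0466 for CDKN1A, -0.0575 to 0.0385 for HDAC2 and -0.1052 to 0.0449 for SPHK1; the cause was not tested. The replicate block changed no call of the 10 genes or of the other named genes, and gave 63 genes lower and 11 higher at 30 min and 1381 and 1780 at 24 h. Its correlations ran from -0.407 to 0.188 for libraries of the same number and from -0.371 to 0.422 for the others. Depth limits ID3 most.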

Other observations

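Of 10 monocytic markers, 9 were tested. At 24 h 2 were called higher against the control and 0 lower, namely CSF3R with a log2 fold change of 1.11 and ITGB2 with 0.92, beside 14.8% and 11.5% of all genes tested. At 30 min 1 was called lower and 0 higher, CEBPB with -0.75, beside 0.544% and 0.0949% of all genes. The markers went both ways at 24 h, with LYZ at -0.32 and SPI1 at -0.33, neither called, so their summed level describes no common change. That sum was 618.3 to 633.6 FPKM in the control libraries, 600.3 to 617.7 after 30 min and 695.4 to 713.5 after 24 h. The genes named here were chosen after their values were seen.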
